A study of Homo sapiens with 12 samples.

Results

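The comparison described here asks how the distribution of ribosome footprints between monosomes and polysomes differed, gene by gene, between amino acid starvation and serum starvation of HEK293 cells, an established human embryonic kidney line. The 8 libraries compared, of 12 in the series, were all those made from starved cells: monosome and polysome fractions of cells kept for 1 h without amino acids and of cells kept for 2 h without serum, with 2 libraries, lettered A and B, in each of the 4 groups. Amino acid starvation was in EBSS, a balanced salt solution, to which MEM vitamins, 10% FBS and P/S had been added, so these cells still had serum. Control cells grew in DMEM with 10% FBS and P/S (log phase), and their 4 libraries entered the spread of the fits and are given as the background level. The 2 starvations differ in duration as well as in the nutrient removed, and these cannot be told apart. All lysates held cycloheximide, which holds ribosomes on mRNA, and the fractions were pooled from polysome gradients.

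A monosome is 1 ribosome on an mRNA, and a polysome is an mRNA carrying several. Short coding regions have room for few ribosomes, and an mRNA on which initiation slows moves from polysomes toward monosomes. Amino acid shortage is known to act on translation through the kinase GCN2, which phosphorylates eIF2 and favours a few mRNAs such as ATF4, and through mTORC1, which controls mRNAs with a 5′ terminal oligopyrimidine tract (5′ TOP), most of which encode ribosomal proteins. Serum supplies growth factors that also act through mTORC1 and that induce immediate early genes.

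For each gene, the footprints of its coding open reading frames (ORFs) were summed and set against all coding footprints of the library. The monosome over polysome ratio is the difference of the log2 levels in the 2 fractions, and the ratio change is that ratio in amino acid starvation minus that in serum starvation. A gene with a positive change had more of its footprints in monosomes, relative to other genes, after amino acid starvation. The scaling removes any shift of all genes together, and a level combines mRNA amount with ribosomes per mRNA, as well as the share of cells that express the gene, which cannot be told apart in bulk lysates. Of 6375 genes with a coding ORF, 4765 were tested. Levels are in CPM, the footprints of a gene relative to all coding footprints of the library, with library sizes scaled by TMM (trimmed mean of M values).

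The compared monosome libraries held 119947 to 303642 coding footprints and the compared polysome libraries 1493881 to 3969458, so counts are lower on the monosome side. The spread between polysome libraries limits precision as well. In the fit with 1 letter term, the SE of the change between starvations was 0.45 in monosomes and 0.44 in polysomes for H2AC14. For H1-1, with fewer monosome footprints, it was 0.52 and 0.34. Monosome library A of amino acid starvation had 47.5% of all its footprints in 1 out-of-frame ORF of 9 nt, against 0.935% in its partner B and 0 and 0.796% in serum starvation. That ORF is not coding and enters no ratio. Of 9 genes listed as HEK293 markers, 4 had a coding ORF (NEFM, NEFL, VIM and KRT8), with summed levels of 561 to 8225 CPM in the 12 libraries. Markers of fibroblasts, leukocytes, red cells and endothelium were at 0 or had no coding ORF, except COL1A1 at up to 9.88 and HBA1 at up to 1.51 CPM.

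The replication-dependent histones were the gene group with the highest median ratio change of the 25 lists examined. These genes encode the core and linker histones made in S phase, and their mRNAs end in a stem-loop in place of a poly(A) tail. Over 46 tested genes their median ratio was -1.61 in log phase and -0.98 in serum starvation, so that relative to other genes their level was lower in monosomes than in polysomes. After amino acid starvation the median ratio was 1.27, with the higher level in monosomes. The median ratio change was 2.44 on the log2 scale (quartiles 1.82 and 2.85), beside 0.08 over all tested genes, and 45 of the 46 changes were above 0, beside 52.9% of all tested genes. Of 62 histone genes listed, these 46 were tested. The others had no coding ORF under their name or too few footprints.

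How many single genes passed depends on how the letters are treated. Libraries of the same letter deviated from their group together, so the test was run without a term for the letter, with 1 letter term, and with a letter term for each fraction. Without a letter term, edgeR called 0 of 4765 genes (0%) at an adjusted p of 0.05, although 167 had an unadjusted p below 0.05 and DESeq2 called 11, all higher and all replication-dependent histones. With 1 letter term, edgeR called 11 genes (0.231%), of which 10 were higher (0.21%) and 1 lower (0.021%), and DESeq2 called 84. The 11 include the row ENSG00000272196, whose values are identical to those of the histone H2AC18. With a letter term for each fraction, edgeR called 396 genes (8.31%), 268 higher (5.62%) and 128 lower (2.69%). With a term for each pair of monosome and polysome libraries, edgeR called 10 (0.21%). The split of calls with a letter term for each fraction moves with the scaling. It was 185 higher of 351 with RLE (relative log expression) size factors and 78 higher of 177 with plain totals, and the median change of all genes was 0.06, -0.06 and -0.25 in the 3 fits. No label says that the letters mark shared cultures, and the p-values measure only the spread between these libraries, which may be technical. Changes and SEs below are from the fit with 1 letter term, also where an adjusted p from another fit stands beside them.

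Of the 46 histone genes, edgeR called 0 with no letter term, 7 with 1 letter term and 37 with a letter term for each fraction, all of them higher. DESeq2 called 11 with no letter term and 31 with 1 letter term. The edgeR backgrounds with 1 letter term and with a letter term for each fraction, in that direction, were 0.21% and 5.62% of all tested genes. In 43 of the 46, both amino acid ratios lay above both serum ratios, beside 22.6% of all tested genes. The letter pairs each gave a high median, 2.73 from the A libraries and 2.08 from the B libraries. Both fractions contributed. The median level change in monosomes was 1.32, with 29 genes higher by edgeR with a letter term for each fraction (1.85% of all tested genes), and in polysomes it was -1.10, with 30 genes lower (10.6% of all tested genes). The fall in polysomes was mostly in letter A. Summed over the 46 genes, the polysome level was 75133 CPM in amino acid against 188530 in serum starvation in letter A, and 51179 against 64167 in letter B. The monosome sums were 130100 against 69886 in letter A and 112690 against 47099 in letter B.

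**Figure D1:**
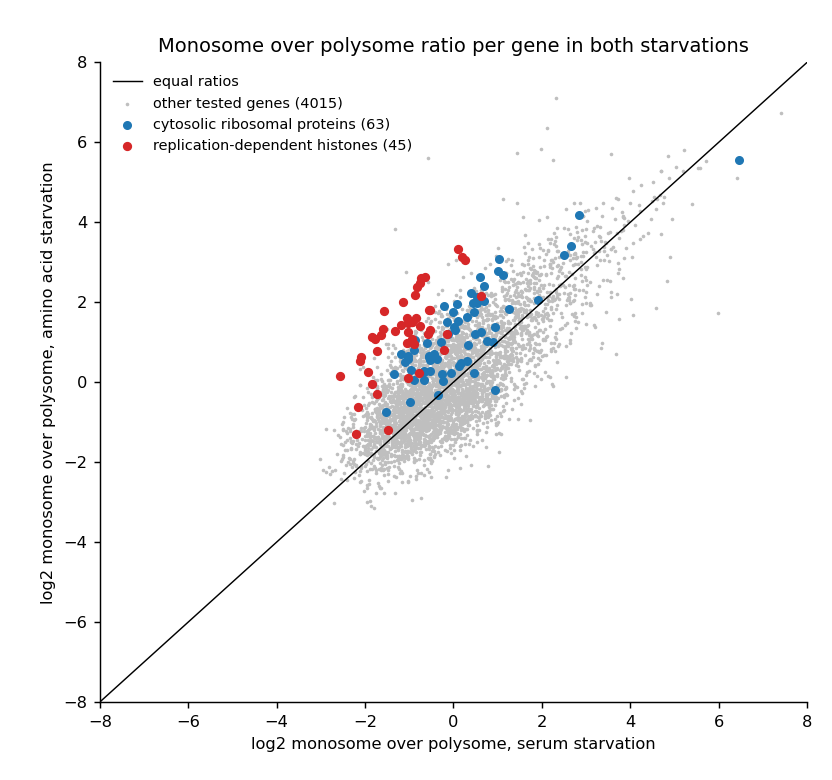
Log2 monosome over polysome ratio in serum starvation (x axis) and amino acid starvation (y axis) from the fit with 1 letter term, 1 point per gene, with values beyond 8 in either direction drawn at the edge and 642 genes with 3 or fewer footprints in a compared group left out. All 45 histone genes drawn (red) and 60 of 63 cytosolic ribosomal protein genes (blue) lie above the line of equal ratios, as do 2172 of 4015 other genes.

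As a share of all coding footprints, listed histones made up 12.2% and 11.7% of the monosome libraries in amino acid starvation, 6.58% and 5.22% in serum starvation and 4.89% and 4.08% in log phase (letters A and B). In polysomes they made up 8.40% and 5.90% in amino acid starvation, 14.8% and 7.42% in serum starvation and 13.5% and 9.55% in log phase. The monosome shares of amino acid starvation stood above those of the other conditions in both letters, while the polysome shares of the 2 starvations overlapped across letters and were lower in amino acid starvation within each letter.

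**Figure D2:**
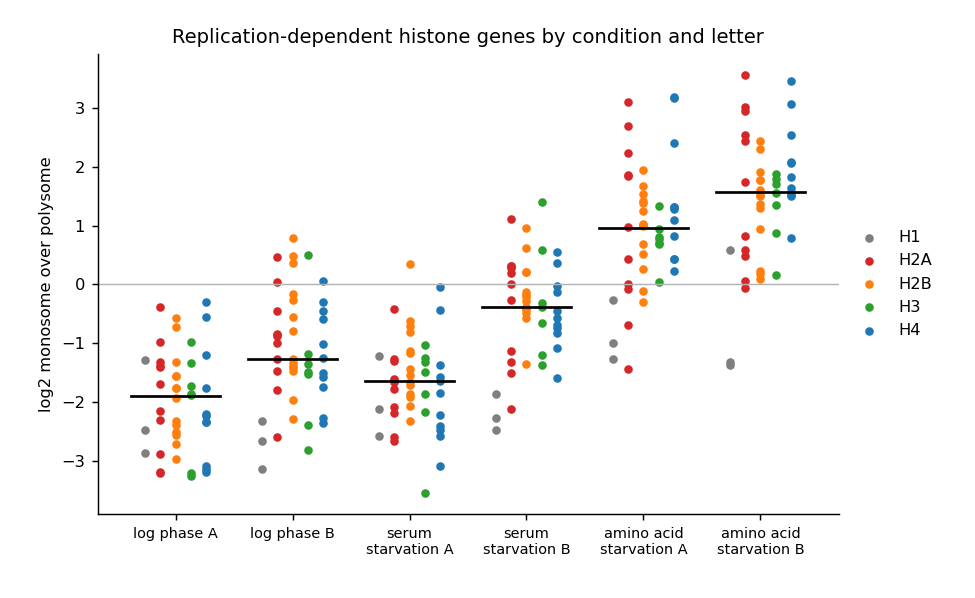
Log2 monosome over polysome ratio of the 46 tested replication-dependent histone genes in each condition and letter, coloured by histone class, with the black bar at the median of all 46. Most genes lie below 0 in log phase and serum starvation and above 0 in amino acid starvation, in both letters, while H1 genes are among the lowest in amino acid starvation.

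The histone classes differed in their values. H4 genes, which encode the core histone that pairs with H3, had a median change of 2.92 over 11 genes, of which edgeR called 4 with 1 letter term and 11 with a letter term for each fraction. H2A genes had a median of 2.73 over 11 genes (3 and 10 called in the same edgeR fits). The 7 H3 genes had a median of 2.28 (0 and 6 called), and the 14 H2B genes, whose products pair with H2A, had a median of 1.93 (0 and 9 called). The 3 linker histone H1 genes had a median of 0.91 (0 and 1 called). The 31 histones called by DESeq2 with 1 letter term were not split by class. No test of the difference between classes was run.

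Summed over the 11 H4 genes, the monosome level was 35096 and 28803 CPM in amino acid starvation against 11935 and 8905 in serum starvation. The polysome level was 17756 and 9082 against 51329 and 14892. The monosome sums of the 2 starvations did not overlap, and the polysome sums did, because serum library B lay below amino acid library A. Within each letter the polysome sum was lower in amino acid starvation. The log2 ratio of the sums was 0.98 and 1.67 in amino acid starvation, -2.10 and -0.74 in serum starvation and -2.32 and -1.45 in log phase. For the 3 H1 genes the same ratio was -0.99 and -1.34, -1.24 and -1.87, and -1.31 and -2.34. The H1 ratio was thus below 0, a lower level in monosomes than in polysomes, in every condition and letter. Most H1 footprints came from H1-4. Genes of a class are near-identical in coding sequence, and the ORF caller gives each such ORF a part of the shared footprints, so the split between single genes is uncertain. A division among tested genes of a class does not move the class sum.

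**Figure D3:**
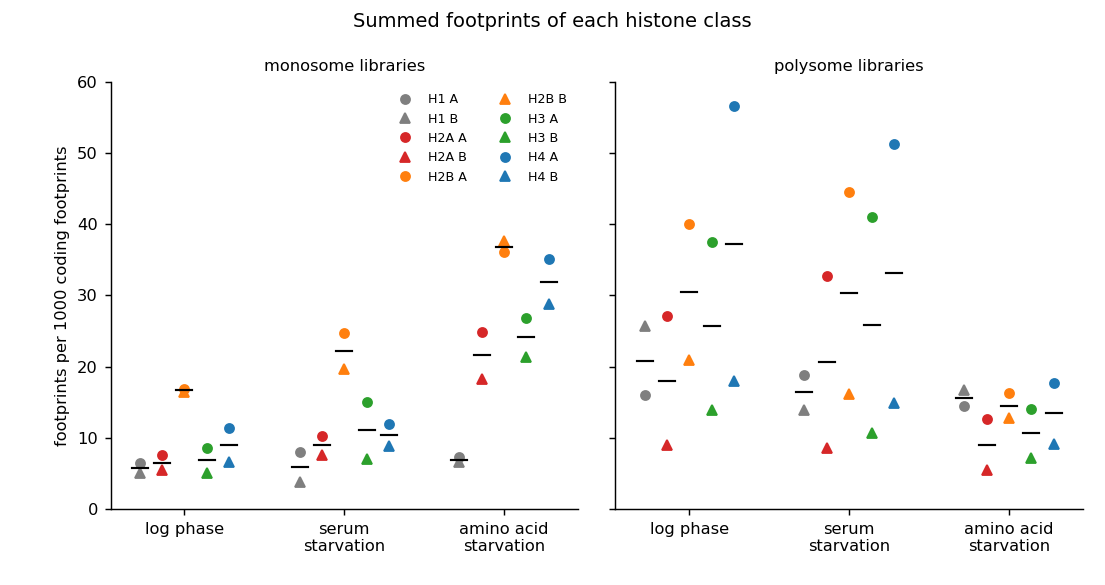
Summed level of each histone class, in footprints per 1000 coding footprints, in the monosome (left) and polysome (right) libraries of each condition, with circles for letter A, triangles for letter B and bars at the mean of both. In monosomes the 4 core histone classes are highest in amino acid starvation in both letters, and in polysomes letter A lies above letter B for these classes in every condition.

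H2AC14 had the highest change among listed histones. Its monosome level was 1182 and 790.4 CPM in amino acid starvation and 363 and 276 in serum starvation, and its polysome level was 252 and 101 against 1140.2 and 229. The monosome levels of the 2 starvations did not overlap, and the polysome levels did, although within each letter they were lower in amino acid starvation. The ratio change was 3.36 (SE 0.63, edgeR adjusted p = 0.00981 with 1 letter term and 1.59e-09 with a letter term for each fraction). H4C1 had monosome levels of 1354 and 813 against 274 and 169, and polysome levels of 254 and 140 against 714 and 186, a change of 3.23 (SE 0.61, adjusted p = 0.00981). H4C11 had monosome levels of 2271 and 2399 against 611 and 873, and polysome levels of 248 and 217 against 825 and 596, so neither fraction overlapped (change 3.23, SE 0.61, adjusted p = 0.00981). With 1 letter term, H2AC13 (3.27, adjusted p = 0.0182), H4C12 (2.92, adjusted p = 0.0182), H4C2 (3.34, adjusted p = 0.0473) and H2AC18 (3.20, adjusted p = 0.0473) passed as well. With a term for each pair of libraries, H4C2 and H2AC18 no longer passed (adjusted p = 0.135 and 0.105), and the other 5 histones did. The ORFs of these called histones do not start at ATG, and all but that of H4C11, a variant, are truncated. Their deposited caller p-value was 0.170 for H2AC13 and 0.244 for H2AC18, and 5.5e-05 or lower for the rest. The ORF of H2AC18 with the most footprints is 12 nt long. A row with the identifier ENSG00000272196 held identical values, so these are 1 measurement. Among all tested genes, 10 had a row identical to another, and 2 of these are listed histones.

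Not every histone gene followed. H3C6 had a change below 0, but it was at no more than 29.7 CPM in any compared library. With 3 or fewer footprints in 1 compared group it gets no size, and its direction cannot be relied on. H1-4 had a change of 0.28 (SE 0.83), with monosome levels of 6825 and 6287 against 7880 and 3692. H2BC14 had a change of 1.03 (SE 0.74) with overlapping ratios. H2BC10, H2BC21, H2BC6, H2BC5, H2AC8 and H1-3 had changes of 0.91 to 2.01 and did not pass with a letter term for each fraction either. H2BC14 and H2BC10 averaged under 20 monosome footprints per library in both starvations. H2AC25, an H2A gene outside the list, did go the way of most listed histones, with both amino acid ratios above both serum ratios. Its change was 2.45 (edgeR adjusted p = 0.0687 with 1 letter term and 8.37e-05 with a letter term for each fraction).

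Because these genes moved together, the windows just upstream of 3 of those with the smallest p are shown, from RefSeq on GRCh38.p14. Each is 120 bases, 5′ to 3′ on the gene's strand, with TATAAA and CCAAT (or its reverse complement ATTGG) in capitals.
H2AC14 (chr6:27814778-27814897, minus strand): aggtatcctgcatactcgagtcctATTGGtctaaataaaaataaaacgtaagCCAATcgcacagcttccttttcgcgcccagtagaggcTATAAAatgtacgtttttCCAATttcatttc
H4C11 (chr6:27823972-27824091, plus strand): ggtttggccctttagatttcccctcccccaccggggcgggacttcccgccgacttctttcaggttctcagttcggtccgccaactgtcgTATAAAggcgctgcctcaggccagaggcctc
H2AC13 (chr6:27808053-27808172, plus strand): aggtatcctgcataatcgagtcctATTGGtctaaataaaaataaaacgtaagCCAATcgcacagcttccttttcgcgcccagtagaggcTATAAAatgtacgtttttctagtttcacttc
Over the 250 bases upstream of the start, TATAAA on the gene's strand was in 29 of 44 tested histone genes with a window (65.9%), beside 4.03% of 3698 tested genes and 7.18% of all 27305 promoters. CCAAT on either strand was in 35 of the 44 (79.5%), beside 37.4% and 33.0%. These matches describe the letters of the windows and carry no test. Footprints come from mRNA, and transcription was not measured.

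A pair of smaller histone-related lists, chosen after the histone values had been seen, gave fewer or lower values. Of 12 variant histones with polyadenylated mRNAs, 6 were tested, with a median change of 0.68 (range -0.93 for H1-10 to 1.71 for H3-5) and 0 calls by edgeR with 1 letter term or with a letter term for each fraction. H3-5 averaged under 20 monosome footprints per library in both starvations, so its size is uncertain. H3-3A and H3-3B, which encode the replacement histone H3.3, had changes of 1.22 and 1.32. Of 11 factors that process or degrade histone mRNA 3′ ends, 4 were tested, with a median of 0.15 (-0.14 with plain totals) and 0 calls in the same fits. SLBP, the stem-loop binding protein, had a change of -0.23 (SE 0.60).

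Cytosolic ribosomal protein genes had lower median levels in both fractions after amino acid starvation, and more so in polysomes. Large-subunit genes had a median ratio change of 1.27 over 37 tested genes, 35 of them above 0, and small-subunit genes a median of 1.05 over 26, 25 above 0. By edgeR, 11 and 6 passed as higher and 0 as lower with a letter term for each fraction. Of all tested genes, 5.62% were higher and 2.69% lower in that fit. None of the ribosomal proteins passed with 1 letter term. The median monosome change was -0.62 and -0.81, with 7 of 37 and 4 of 26 lower and 0 higher by edgeR with a letter term for each fraction (0.693% of all tested genes were lower). The median polysome change was -1.56 and -1.81, and in that fit 31 of 37 and 23 of 26 were lower and 0 higher, beside 10.6% of all tested genes lower. Even with 1 letter term, 15 and 11 were lower in polysomes, beside 0.965% of all tested genes lower and 0.042% higher.

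RPL12, a large-subunit protein, had polysome levels of 77.2 and 60.1 CPM in amino acid starvation against 1155 and 343 in serum starvation. Its monosome levels were 135 and 142 against 478 and 282. Both fractions were lower without overlap, and the ratio change was 1.92 (SE 0.70, edgeR adjusted p = 0.276 with 1 letter term and 0.0116 with a letter term for each fraction). RPS26, a small-subunit protein, had a ratio change of 1.71 (SE 0.62, adjusted p = 0.0123 with a letter term for each fraction). RPL41, whose coding region is among the shortest known, went the other way at -0.92 (SE 0.67) without passing. The medians rest partly on single libraries. The large-subunit median was 0.46 without monosome library B of amino acid starvation and 0.35 without polysome library A of serum starvation, and the small-subunit median was 0.63 and 0.30.

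The other 5′ TOP genes, which encode elongation factors and similar proteins, had a median ratio change of -0.47 over 23 genes, with 0 calls in either direction by edgeR with either form of the letter term. EEF1A1, the elongation factor that brings tRNA to the ribosome, had a change of 0.37 (SE 0.64), EEF2, the translocation factor, -0.50 (SE 0.73), and TPT1 0.05 (SE 0.58), and none of the 3 kept its sign under every alternative. PABPC1, the poly(A)-binding protein, had a change of -0.64 (SE 0.62). These values set the list apart from the ribosomal proteins in median, but the difference between the lists was not tested.

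**Figure D4:**
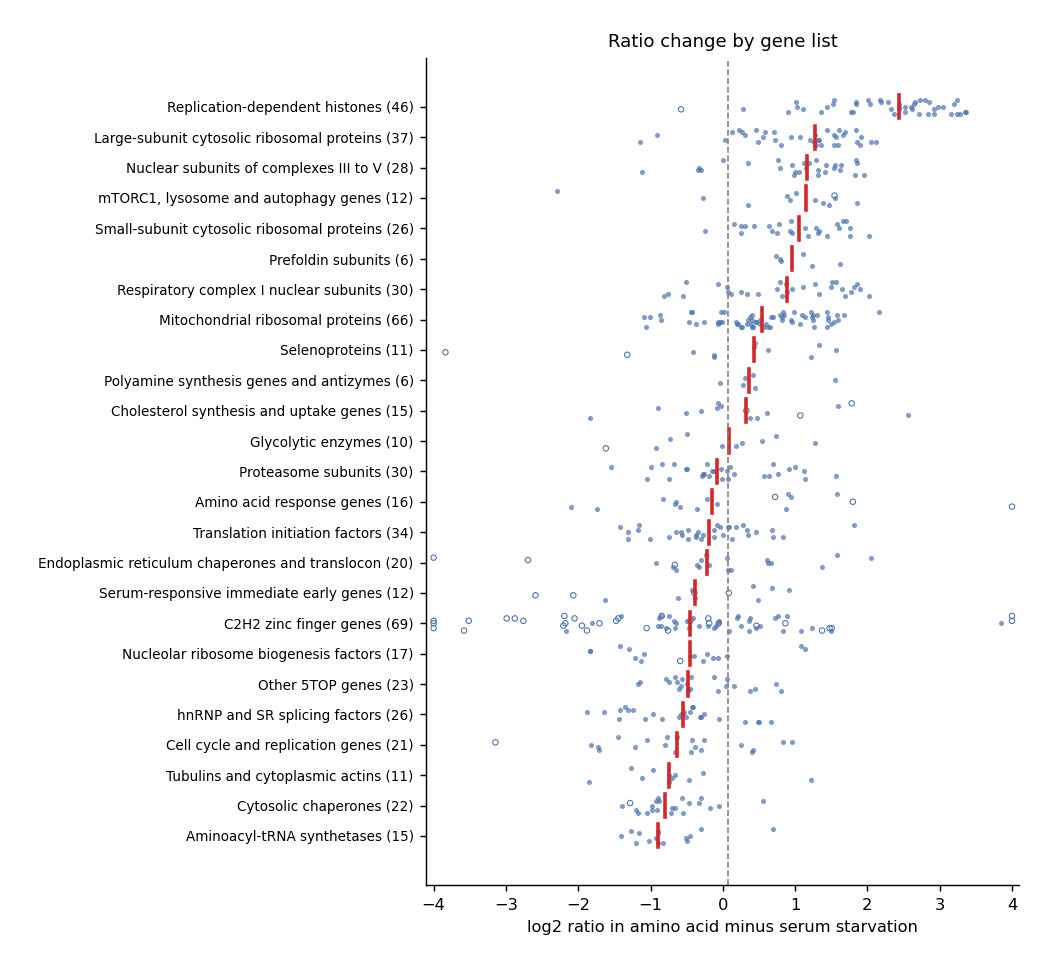
Ratio change (log2, amino acid minus serum starvation, fit with 1 letter term) of each tested gene in the 25 lists, with the number tested in brackets, the red bar at the list median and the dashed line at the median of all tested genes. Open circles are genes with 3 or fewer footprints in a compared group and values beyond 4 are drawn at the edge. Replication-dependent histones have the highest median at 2.44 and aminoacyl-tRNA synthetases the lowest at -0.90.

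Genes of the oxidative phosphorylation machinery leaned toward monosomes. Nuclear subunits of respiratory complex I had a median change of 0.88 over 30 genes and those of complexes III to V a median of 1.17 over 28. By edgeR, 11 and 10 passed as higher and 0 as lower with a letter term for each fraction. The shares of all tested genes were 5.62% and 2.69%. None of these subunits passed with 1 letter term. NDUFS5, an accessory subunit of complex I, had monosome levels of 1003 and 886 against 540.1 and 299.99, and polysome levels of 1444 and 1039 against 3085 and 1127 (change 1.90, SE 0.64, adjusted p = 0.00636 with a letter term for each fraction). COX7A2, of cytochrome c oxidase, had monosome levels of 1520.0 and 1019 against 753 and 330. Its change was 1.85 (SE 0.63, edgeR adjusted p = 0.244 with 1 letter term and 0.00442 with a letter term for each fraction). The longer core subunits NDUFS1 and NDUFV1 had changes of -0.81 and -0.56, and ATP5F1A, the alpha subunit of ATP synthase, -1.12. Mitochondrial ribosomal proteins had a median of 0.55 over 66 genes, with 7 higher and 0 lower with a letter term for each fraction, beside 5.62% of all tested genes higher.

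In the amino acid response list, 16 of 30 genes were tested, with a median of -0.15. With a letter term for each fraction 1 passed, beside 8.31% of all tested genes. That gene was ATF4, the transcription factor of this response, whose ORF has a deposited caller p-value of 0.110. Its polysome level was 138 and 66.8 in amino acid starvation against 76.6 and 33.0 in serum starvation, and its monosome level was 295 and 228 against 522 and 395. Within each letter the polysome level was higher in amino acid starvation, and the monosome levels did not overlap. The ratio change was -1.74 (SE 0.58, edgeR adjusted p = 0.224 with 1 letter term and 0.0030 with a letter term for each fraction). Its ratios were 1.09 and 1.76 in amino acid starvation, 2.75 and 3.53 in serum starvation and 1.26 and 2.95 in log phase, so the amino acid ratios overlapped those of log phase. DDIT4, an inhibitor of mTORC1, had a change of -2.10 (SE 0.85) and PYCR1, a proline synthesis enzyme, 1.58 (SE 0.75), and neither passed. Both genes averaged under 20 monosome footprints per library in both starvations, so these sizes are uncertain. Aminoacyl-tRNA synthetases, which load tRNAs with amino acids, had the median of -0.90 over 15 genes, with 1 above 0. Of these, 1 passed as lower with a letter term for each fraction, beside 2.69% of all tested genes. It was TARS1 (-1.27, edgeR adjusted p = 0.335 with 1 letter term and 0.0332 with a letter term for each fraction). Higher polysome levels were called for 9 of the synthetases with a letter term for each fraction, beside 8.94% of all tested genes.

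Among genes that act around mTORC1, the lysosome and autophagy, 12 were tested, with a median of 1.15. With a letter term for each fraction, 2 passed as higher and 1 as lower, beside 5.62% and 2.69% of all tested genes. SQSTM1, the autophagy receptor p62, had polysome levels of 71.8 and 130 against 36.4 and 85.1, and monosome levels of 18.5 and 27.4 against 35.4 and 92.1. Its change was -2.29 (SE 0.75, adjusted p = 0.216 with 1 letter term and 0.00608 with a letter term for each fraction). Its monosome footprints averaged under 20 per library in both starvations, so the size is uncertain, and its ORF has a deposited caller p-value of 0.384. GABARAPL2, a protein of the autophagosome membrane, had a change of 1.86 (SE 0.65, adjusted p = 0.00593), and LAMTOR5, a subunit of the Ragulator complex that anchors mTORC1 at the lysosome, 1.55 (SE 0.63, adjusted p = 0.029), both with a letter term for each fraction.

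Serum-responsive immediate early genes had a median of -0.39 over 12 tested genes of 32 listed. JUN alone passed, as lower with a letter term for each fraction, beside 2.69% of all tested genes lower. Its change was -1.63 (SE 0.57, edgeR adjusted p = 0.252 with 1 letter term and 0.00835 with a letter term for each fraction). MYC had a change of -0.62 (SE 0.64), and EGR1 was not tested. In the cholesterol list EBP, a sterol isomerase, had the highest change, 2.56 (SE 0.63, adjusted p = 0.0718 with 1 letter term and 5.68e-06 with a letter term for each fraction). Its monosome levels were 191 and 461 against 35.4 and 146, and its polysome levels 76.0 and 56.8 against 113 and 129.9. The level in serum monosome library A rests on few footprints. With a letter term for each fraction, INSIG1, which retains the sterol sensor in the endoplasmic reticulum, was higher (1.60, adjusted p = 0.0402). HMGCS1, an early enzyme of the pathway, was lower (-1.84, adjusted p = 0.00087) in the same fit. INSIG1 averaged under 20 monosome footprints per library in both starvations. The list of 15 tested genes thus held 2 genes called higher and 1 lower, beside 5.62% and 2.69% of all tested genes.

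Several lists with longer ORFs had medians below 0 and higher polysome levels in amino acid starvation. Longer means a median above the 651 nt of all tested genes, by the ORF of each gene with the most footprints. Cytosolic chaperones had a median ratio change of -0.80 over 22 genes. In the fit with a letter term for each fraction, 3 passed as lower, beside 2.69% of all tested genes, among them HSPA8. Its change was -1.39 (SE 0.55, edgeR adjusted p = 0.296 with 1 letter term and 0.0209 with a letter term for each fraction). In polysomes, 19 of the 22 chaperones were higher with a letter term for each fraction, beside 8.94% of all tested genes. By contrast, the 6 prefoldin subunits, which hand actin and tubulin to the chaperonin, had changes of 0.74 to 1.62, all with ratios that did not overlap (22.6% of all tested genes were higher without overlap), and PFDN2 passed (adjusted p = 0.0105). Cell cycle and replication genes had a median of -0.63 over 21 genes, with 5 lower: MCM3, MCM4 and MCM7 of the replicative helicase, CCNB1 and CDK1. MCM7 had polysome levels of 383 and 1009.5 against 170 and 477, and monosome levels of 338 and 621 against 505 and 1090.1, with a change of -1.82 (SE 0.57, adjusted p = 0.193 with 1 letter term and 0.00162 with a letter term for each fraction). These changes have the opposite sign to those of most histones, which are made in S phase. Splicing factors of the hnRNP and SR families had a median of -0.54 over 26 genes with 7 lower, led by SRSF5 (-1.88, adjusted p = 0.00087), and nucleolar ribosome biogenesis factors -0.45 over 17 with 4 lower, among them NOP58 (-1.83, adjusted p = 0.00162), DDX21 (-1.84) and GNL3 (-1.42), all with a letter term for each fraction. Tubulins and cytoplasmic actins had a median of -0.74 over 11 genes, with TUBB4B lower.

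**Figure D5:**
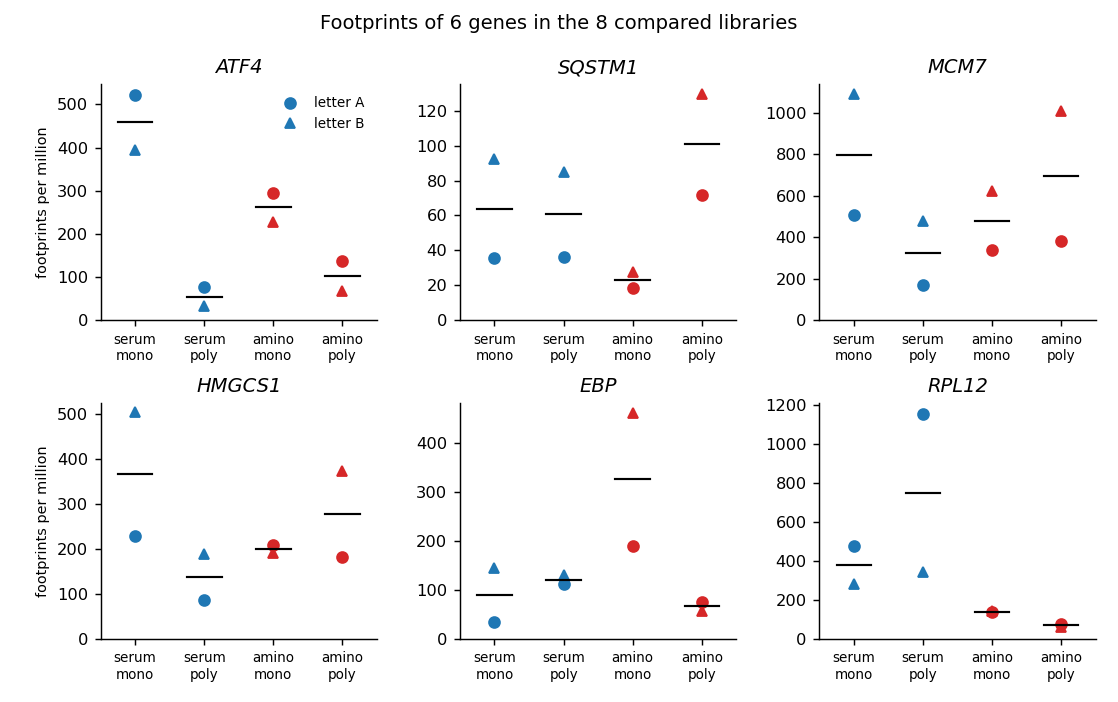
Level in CPM of 6 named genes in the 8 compared libraries, with serum starvation in blue, amino acid starvation in red, circles for letter A, triangles for letter B and bars at the mean of both. ATF4, SQSTM1, MCM7 and HMGCS1 have lower monosome and higher polysome means in amino acid starvation, EBP the reverse, and RPL12 is lower in both fractions. The monosome levels of SQSTM1 and the serum monosome level of EBP in letter A rest on few footprints.

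The remaining lists gave few calls. With a letter term for each fraction, 5.62% of all tested genes were higher and 2.69% lower, and the list counts were not tested against these shares. With a letter term for each fraction, translation initiation factors (median -0.20, 34 genes) had 1 higher, EIF4E2 (1.82), a cap-binding protein, and 3 lower, of which EIF3B (-1.42) and EIF3D (-1.31) are eIF3 subunits. Endoplasmic reticulum chaperones and translocon genes (median -0.21, 20 genes) had 3 higher, among them the translocon subunits SEC61B (2.04) and SEC61G (1.58). Proteasome subunits (median -0.08, 30 genes) had SEM1 (1.57) higher and PSMD2 (-1.54) lower. Polyamine genes (median 0.36, 6 genes) had SMS (1.55), which makes spermine, higher, while ODC1, the first enzyme of the pathway, had a change of 0.44 (SE 0.55). Selenoproteins (median 0.44, 11 genes) had SELENOF (1.57) higher and SEPHS2, which has too few footprints for a size, lower. C2H2 zinc finger genes (median -0.45, 69 genes) had 1 higher and 2 lower, and glycolytic enzymes (median 0.09, 10 genes) had 0 calls by edgeR with any form of the letter term.

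Outside the lists, few genes passed with 1 letter term. NXF1, the mRNA export receptor, was the only gene called lower, with monosome levels of 18.5 and 105 against 142 and 279 and polysome levels of 17.96 and 58.5 against 8.05 and 26.1 (change -2.98, SE 0.62, adjusted p = 0.0252). The monosome levels of NXF1 did not overlap, and the polysome levels did, although within each letter they were higher in amino acid starvation. Its level in amino acid monosome library A rests on few footprints. Its kept ORF is a truncated one of 687 nt at chr11:62800322-62802245 (hg38). EML6, of a family of microtubule-associated proteins, had the largest change among the called genes with enough footprints for a size, 6.19 (SE 0.98, adjusted p = 0.00279). Its monosome levels were 61.5 and 210.2 against 0 and 17.8, and its polysome levels 2.39 and 3.34 against 2.90 and 30.2. The amino acid ratios of EML6 (4.11 and 5.53) lay near those of log phase (4.71 and 3.72), and the serum ratios (-1.74 and -0.72) stood apart. Its ORF is a truncated one of 5613 nt with a deposited caller p-value of 0.993, and the serum monosome libraries held few footprints of it. LRP1, an endocytic receptor, passed too (adjusted p = 0.00981) but had too few footprints in serum monosomes for a size. PLXNB1, a semaphorin receptor (4.28), UMAD1 (3.08) and the row ENSG00000267281_ENSG00000170653 (3.00) were among the next smallest p-values without passing with 1 letter term (adjusted p = 0.0599 each). With a letter term for each fraction they passed, at adjusted p = 9.47e-05, 0.00015 and 1.49e-06. PLXNB1 also passed with a term for each pair of libraries (adjusted p = 0.0388), but its level was 0 in serum monosome library A. The deposited caller p-value of its ORF is 0.329.

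ORF length went along with the direction. The length of a gene is that of its kept ORF with the most footprints. Many of these ORFs are truncated and can be shorter than the coding region, as for H2AC18 (12 nt) and H4C3 (93 nt). The Spearman correlation across 4765 genes between ORF length and ratio change was -0.29 (-0.16 in letter A and -0.28 in letter B), and it was -0.10 for the monosome change and 0.30 for the polysome change. Genes share libraries and are not replicates, so no p is given. Genes with ORFs under 300 nt had a median change of 0.26, those from 300 nt 0.49, those from 600 nt 0.05, those from 1200 nt -0.58 and those from 2400 nt -0.47. With a letter term for each fraction, the calls were 83 higher and 2 lower of 908 genes in the shortest class and 144 and 9 of 1286 in the next. They were 33 and 34 of 1614 in the middle, and 2 and 70 of 710 and 6 and 13 of 247 in the longest classes. Over all tested genes, 5.62% were higher and 2.69% lower in that fit. Without the histones the medians of the first 2 classes were 0.24 and 0.47. The letters disagreed for the longest ORFs, at 0.74 in A and -0.89 in B. By this measure histones (median 333 nt), ribosomal proteins (438 nt) and respiratory subunits (409.5 and 307.5 nt) were short. The tRNA synthetases (1482 nt) and chaperones (1632 nt) were long by it, and the part of length in the list values was not tested.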

How the data were processed

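The series holds footprint libraries of HEK293 cells, 12 in 6 groups. Per the submitters' processing notes, Bowtie 1.0 and hg38 were used, with roles not given in the sources used here. The authors deposited expected counts per ORF for each library and a p-value per ORF from the caller PRICE, named in the file title. Footprints of 17 to 34 nt were kept, per the labels' protocols.

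ORFs of types CDS, Trunc and Variant were summed per gene with each codon counted once, which kept 7031 of 11336 coding ORFs, and the sums were rounded to whole numbers. The caller p-value was not used to choose ORFs, and some named genes, such as LRP1 and MCM4, have ORFs with high values. RefSeq positions named 5892 of 6375 genes. Coordinates are 1-based. The ratio change was tested two-sided with edgeR 4.0.16 (quasi-likelihood, TMM, filterByExpr, Benjamini-Hochberg adjustment over 4765 genes) on all 12 libraries. DESeq2 1.42.0, other scalings, filters, ORF types, thinning and leaving out libraries were alternatives. Changes and SEs come from the fit with 1 letter term. Ratios per letter use a prior count of 2. The letters pair the libraries by the data: deviations of B from A correlated at 0.16 to 0.42 between fractions, 0.21 to 0.31 between monosome groups and 0.77 to 0.87 between polysome groups. The fit without the letter was the primary one, and the fits with it are given beside it. The scripts were tested on simulated data.

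Named genes were the 20 of smallest p with 1 letter term, up to 12 per direction by size among them, the 3 of smallest p in each list and 11 preset genes, and the histones were described in full. Exceptions named in the text were chosen after their values were seen. Genes with 3 or fewer footprints in a compared group get no size. Members and lists were chosen with earlier results of these data known.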

Additional observations from a re-analysis of the deposited data

Results flagged for a closer look

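The ratio change itself is a difference between the 2 starvations of the monosome over polysome contrast, so every gene that passed with 1 letter term (edgeR) stands here as differing between the groups. These were EML6 at 6.19, H2AC14 at 3.36, H4C2 at 3.34, H2AC13 at 3.27, H4C1 at 3.23, H4C11 at 3.23, H2AC18 at 3.20, the identical row ENSG00000272196 at 3.20, H4C12 at 2.92 and NXF1 at -2.98, all on the log2 scale. LRP1 passed with an adjusted p of 0.00981 and has too few footprints for a size. Of the 11 genes, 7 are listed replication-dependent histones, and the row ENSG00000272196 repeats the values of H2AC18.

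Outside the main measurement, 47.5% of all footprints in monosome library A of amino acid starvation lay in 1 out-of-frame ORF of 9 nt. The log phase monosome library A held 47.9% there, and the other monosome libraries held 0 to 0.935%. The coding shares of these libraries were 23.0% and 24.0%, beside 33.8% to 47.4% in the other monosome libraries.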

How the results depend on the processing

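Without a letter term edgeR called 0 genes under every scaling, filter and left-out library tried. It called 11 with 1 letter term as replicate block, 396 with a letter term for each fraction and 10 with a block per pair of libraries, and DESeq2 without the block called 11. With 1 letter term, the 11 calls became 7 with plain totals, 56 with no filter on low counts, 7 with at least 50 counts in 2 libraries, 0 with CDS ORFs alone (of 1060 genes tested, 144 with an unadjusted p below 0.05) and 84 with DESeq2, and ranged from 0 to 194 when 1 library was left out. They were 0 without serum monosome B or amino acid polysome B, 2 without amino acid polysome A, 3 without serum monosome A, 61 without amino acid monosome A and 194 without serum polysome B. The 7 histones among them became 4 with plain totals, 26 with no filter, 0 with CDS ORFs alone and 31 with DESeq2, and 0 to 35 with 1 library left out. With a letter term for each fraction, a set of alternatives added after the data were seen, the 396 calls became 177 with plain totals, 174 with the compared groups alone, 126 with CDS ORFs alone and 153 after thinning every library to the shallowest, and ranged from 78 to 555 with 1 library left out (78 without serum monosome B, 87 without amino acid monosome B, 88 without serum polysome A, 169 without amino acid polysome A and 245 without amino acid monosome A). The 37 histones became 11 with CDS ORFs alone, where most histone ORFs are not tested, and 26 to 39 with 1 library left out. The histone median stayed between 1.86 and 2.80 over left-out libraries. TPT1 changed sign, to -0.087 with RLE, -0.29 with plain totals and between -0.34 and 0.33 with 1 library left out, as did EEF2 (between -1.29 and 0.71) and EEF1A1 (between -0.080 and 0.92). The cause of these shifts was not tested. Of the gene values under alternatives, 834 kept direction and side of the threshold, 107 passed newly, 52 no longer passed and 8 changed sign. List medians also changed sign. That of glycolytic enzymes was -0.17 with plain totals and -0.026 with a letter term for each fraction. Without serum monosome B, other 5′ TOP genes were at 0.04, amino acid response genes at 0.54, immediate early genes at 0.15, zinc fingers at 0.75 and cholesterol genes at -0.30. Medians of initiation factors, endoplasmic reticulum, proteasome and polyamine genes changed sign without amino acid monosome B or serum polysome A. Depth of the monosome libraries, 119947 coding footprints in the shallowest, limits single genes.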
